A study of Mus musculus with 6 samples.

Results

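The Notch ligand Jag1 and 9 further genes of the Notch pathway were followed through a transcriptome of mouse embryonic fibroblasts (MEFs). The 10 genes are the ligands Jag1, Jag2 and Dll1, the receptors Notch1, Notch2 and Notch3, and the targets Hes1, Hey1, Hey2 and Heyl. They were picked by symbol from a table of 26231 genes, and all 10 have a row. The choice was made knowing that Jag1 differed between the lines, so the line difference of these 10 genes is given as a description, with no p-value of its own. How many of them passed in the fit over all genes is given once, and nothing is read from it.

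The cells are fibroblasts of FVB strain Nf2fl/fl embryos, which the labels put at approximately 14 days of age, immortalized with SV40 large T antigen delivered by lentivirus. Both lines carry the floxed Nf2 alleles. The control, labelled MEF WT, received a CMV-GFP lentivirus, and the line labelled MEF Nf2 KO received a CMV-Cre GFP lentivirus. Cre cuts out the floxed part of Nf2, which encodes the tumor suppressor Merlin. There is 1 line of each kind, so what differs between the lines for other reasons than Nf2 cannot be told apart from the genotype. Each line has 3 libraries, with library marks A, B and 2018 on replicates 1, 2 and 3, and the cells spent 24 h in serum-free medium before RNA was taken. No source says that the libraries of a line came from separate cultures, so their spread may be technical.

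Notch receptors are cell surface proteins that are activated by ligands of the Jagged and Delta families on a neighboring cell. Binding leads to cleavage by an ADAM protease and then by gamma-secretase, and the freed intracellular part enters the nucleus, where it joins the DNA-binding protein RBPJ and Mastermind-like coactivators. Hes and Hey genes are the classical targets and encode transcriptional repressors. In fibroblasts and the mural cells of vessels, JAG1 and the Notch receptors are best known for signals between neighboring cells that set differentiation.

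The deposited values behave as RPKM, that is, as reads scaled to the exon length of the gene and to the depth of the library, so levels can be compared between genes. The steps in the low values put the depth at 13462402 to 73093044 reads, with both libraries marked 2018 the deepest. The libraries labelled MEF Nf2 KO, called KO-labelled below, did not have less Nf2 RNA, at 15.4, 12.9 and 13.9 RPKM against 14.3, 13.7 and 13.1 RPKM in MEF WT, so each direction given here follows the labels only. Fibroblast markers were present, since all 10 exceeded 1 RPKM on average, led by Vim. Their sum was 1900 to 2600 RPKM in MEF WT and 1490 to 1930 RPKM in the KO-labelled libraries. Fn1 and Pdgfra, named after their values were seen, were lower in the latter past the threshold of 0.05 used here (limma, Benjamini-Hochberg adjusted p = 0.039 and 0.0329). Pdgfra had 12.3, 5.22 and 11.7 RPKM in MEF WT and 1.42, 0.657 and 0.962 RPKM in the KO-labelled libraries. Had all libraries been at its KO-labelled levels, the filter on low values given below would have left Pdgfra untested. The p-value of Pdgfra is therefore a description only. With replicate numbers as a block, Col3a1 and Thy1 were lower as well and Twist1 was higher, also named after their values were seen (limma, adjusted p = 0.0274, 0.00716 and 0.0289). Endothelial markers, which belong to cells rich in Notch ligands, summed to 3.06 to 6.45 RPKM over all 6 libraries, with Kdr the highest and Pecam1, Tie1 and Cldn5 at or near 0. Skeletal muscle and epithelial markers (led by Des and Krt18) summed to at most 0.596 and 1.43 RPKM, and macrophage markers (led by Cd68) to 6.90 to 11.9 RPKM.

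Promoter windows of RefSeq genes in GRCm38.p6 were searched for motifs, and those of Jag1, Hey2 and Rbpj are shown. Among the 10 genes Jag1 is the ligand and Hey2 the tested target with the largest difference between the lines, and Rbpj encodes the nuclear factor of the pathway. Each sequence runs 5′ to 3′ from 250 bases before a RefSeq transcript start to 10 bases after it, in lower case with motif matches in capitals. Jag1 lies at chr2:137116511-137116770 on the minus strand, Hey2 at chr10:30842774-30843033 on the minus strand and Rbpj at chr5:53590096-53590355 on the plus strand. Rbpj has 2 windows, of which the first is shown, and both lie inside the gene as GENCODE vM21 gives it, from 53466152 to 53657362 on chromosome 5. The stretches of Jag1 and Hey2 lie partly inside their genes, which begin at 137116644 and 30842801 on the minus strand there.
Jag1: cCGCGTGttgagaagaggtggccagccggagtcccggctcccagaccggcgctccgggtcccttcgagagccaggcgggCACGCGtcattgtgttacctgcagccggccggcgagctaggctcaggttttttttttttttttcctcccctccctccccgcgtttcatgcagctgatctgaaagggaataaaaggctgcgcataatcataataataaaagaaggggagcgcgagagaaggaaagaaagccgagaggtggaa
Hey2: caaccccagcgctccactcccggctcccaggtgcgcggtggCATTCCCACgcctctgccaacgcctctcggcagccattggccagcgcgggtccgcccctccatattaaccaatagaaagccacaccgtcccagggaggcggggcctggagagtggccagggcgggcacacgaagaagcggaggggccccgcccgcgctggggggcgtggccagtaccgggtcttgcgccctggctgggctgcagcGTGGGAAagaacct
Rbpj: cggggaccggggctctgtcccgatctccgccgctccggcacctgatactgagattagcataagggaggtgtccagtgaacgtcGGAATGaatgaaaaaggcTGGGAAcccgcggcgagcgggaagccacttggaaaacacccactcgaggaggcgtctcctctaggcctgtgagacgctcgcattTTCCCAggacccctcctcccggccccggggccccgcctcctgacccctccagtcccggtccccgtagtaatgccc
Both strands were searched for the core bound by RBPJ, TGGGAA, and for its longer form, GTGGGAA. The other letters searched were GGAATG for the TEAD partners of YAP and TAZ, CACGCG for a class of site bound by HES and HEY proteins, and CACGTG for the E-box. Of 32851 windows of 300 bases, 25.6% hold TGGGAA, 6.38% GTGGGAA, 14.7% GGAATG, 9.27% CACGCG and 7.15% CACGTG. The Hey2 window holds GTGGGAA at bases 44 to 50 on the reverse strand and at bases 247 to 253 on the forward strand, and 0.256% of all windows hold 2 or more copies. The reverse copy overlaps a GGAATG at bases 42 to 47 on the same strand. The Jag1 window holds CACGCG at bases 2 to 7 on the reverse strand and at bases 80 to 85 on the forward strand, and no match to the other letters. The Rbpj window holds TGGGAA at bases 102 to 107 and, reversed, at 186 to 191, and GGAATG at bases 84 to 89. Of the 10 genes 7 were searched, and Hes1, Hey1 and Heyl were not. CACGCG also occurred in the windows of Jag2, Notch2 and the upstream window of Dll1, GGAATG in that of Notch1, and Notch3 held none of the letters. The windows of Jag2 and Notch1 lie wholly inside their genes in GENCODE vM21, as does the other window of Dll1, which held no match. These matches describe the sequence and were not tested as binding sites.

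Jag1, a transmembrane ligand of the Notch receptors, was the gene of the 10 that set the lines apart most. It lies on chromosome 2, from 137081456 to 137116644 on the minus strand in GENCODE vM21. Jag1 had 2.03, 4.68 and 3.37 RPKM in MEF WT replicates 1, 2 and 3, and 17.1, 21.9 and 13.3 RPKM in the KO-labelled libraries. The lowest of the latter lay well above the highest MEF WT library, and these levels rest on 159 to 5651 reads. The mean was 3.36 ± 1.33 against 17.4 ± 4.31 RPKM (SD, n = 3 each), a ratio of 5.19. On the log2(RPKM + 1) scale, which understates changes of low values, the difference was 2.10 with a standard error of 0.27, and 0.17 once the replicate number entered as a block. Ordered from the largest increase down, Jag1 ranked 8 by this difference among 11067 genes that reached at least 1 RPKM in at least 3 libraries. Decreases do not enter this rank, and some were larger in size, down to -5.01. The ratio within same-numbered replicates was 8.45 in replicate 1, 4.68 in replicate 2 and 3.93 in replicate 3. The largest ratio was that of replicate 1, whose MEF WT value was the lowest of the 6, while replicate 2 had the most Jag1 RNA of each line.

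Jag2, the other Jagged ligand, was low in all libraries. It had 0.651, 0.227 and 0.279 RPKM in MEF WT and 0.381, 0.633 and 0.177 RPKM in the KO-labelled libraries, on 30 to 119 reads. The lines overlapped, with means of 0.386 ± 0.231 and 0.397 ± 0.228 RPKM (SD, n = 3 each), and the replicate with the highest value was replicate 1 in MEF WT and replicate 2 in the other line. Dll1, a Delta-like ligand, was at the limit of detection. It had 0.0880, 0.0250 and 0.108 RPKM in MEF WT, on 5, 2 and 28 reads, and 0.0131, 0.0123 and 0.0519 RPKM in the KO-labelled libraries, on 1, 1 and 16 reads. The counting interval of the deepest MEF WT library (exact Poisson, 95%) was 0.0717 to 0.156 RPKM and overlapped that of its counterpart, 0.0297 to 0.0843 RPKM. These intervals cover counting error only. Neither Jag2 nor Dll1 reached the filter.

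**Figure D1:**
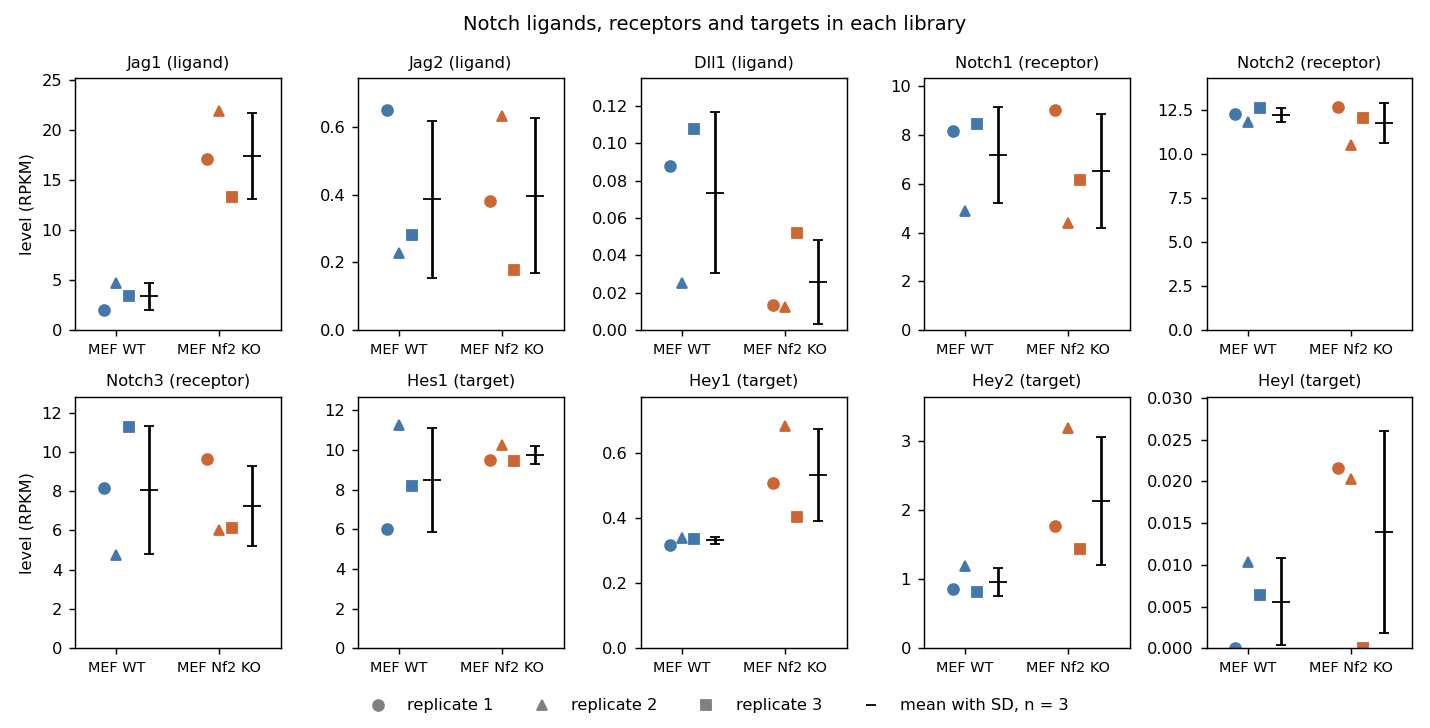
Levels (RPKM, linear axes from 0, a scale of its own for each gene) of the 10 Notch genes in each library of MEF WT (blue) and of the KO-labelled line (orange), with marker shapes for replicate numbers and the mean with SD (n = 3) in black. The lines do not overlap for Jag1, Hey1 and Hey2, with Jag1 at 2.03 to 4.68 against 13.3 to 21.9 RPKM, while receptor levels overlap.

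Jag1 made up most of the ligand RNA in all 6 libraries. Over the canonical ligands Jag1, Jag2, Dll1, Dll3 and Dll4, Jag1 held 72.6, 94.5 and 88.9% of the summed RPKM in MEF WT and 97.4, 97.0 and 98.2% in the KO-labelled libraries. The lowest share belonged to MEF WT replicate 1, where Jag1 was lowest and Jag2 highest. The ligands other than Jag1 summed to 0.485 ± 0.253 and 0.459 ± 0.214 RPKM (SD, n = 3 each), and these sums overlapped, while the levels of Jag1 did not.

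Notch1, a receptor known from T cell leukemia, overlapped between the lines. It had 8.17, 4.90 and 8.44 RPKM in MEF WT and 9.03, 4.38 and 6.14 RPKM in the KO-labelled libraries. Replicate 2 was the lowest of its line in both cases. The line difference was -0.14 on the log2 scale with a standard error of 0.27, and 0.11 with the replicate block. Notch2, the receptor with the most RNA, had 12.3, 11.8 and 12.6 RPKM in MEF WT and 12.7, 10.5 and 12.1 RPKM in the KO-labelled libraries. All 6 values lay within a narrow band, and the line difference was -0.056 with a standard error of 0.097 (0.067 with the block). Notch3, a receptor typical of mural cells, had 8.14, 4.77 and 11.3 RPKM in MEF WT and 9.61, 6.0 and 6.15 RPKM in the KO-labelled libraries. It was higher in the KO-labelled line by ratios of 1.18 and 1.26 in replicates 1 and 2, and at a ratio of 0.546 in replicate 3 it was lower there. The line difference of Notch3 was -0.095 with a standard error of 0.30 (0.22 with the block). It turned to 0.25 without replicate 3 of both lines, 0.16 without MEF WT replicate 3 alone and 0.01 without KO-labelled replicate 2. Without that last library the differences of Notch1 and Notch2 were also positive, at 0.082 and 0.016. Exons of Notch1, Notch3 and Dll1 overlap genes of the opposite strand that had at most 0.293 RPKM, and Notch2 overlaps a gene of its own strand with at most 0.183 RPKM. Whether the counting used strand is not given in the sources used here, so reads in those stretches cannot be told apart.

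The summed receptor RNA differed little beside that of Jag1. Notch1 to Notch4 together had 28.8, 21.8 and 32.4 RPKM in MEF WT and 31.4, 21.0 and 24.5 RPKM in the KO-labelled libraries. Notch2 held 45.3 ± 8.01% and 46.6 ± 5.36% of it (SD, n = 3 each), Notch1 25.6 ± 2.95% and 24.9 ± 3.97%, and Notch3 28.3 ± 6.43% and 28.1 ± 2.78%. The receptor makeup was thus alike in mean between the lines, within a spread of several percentage points. Notch4, an endothelial receptor, added 0.203, 0.294 and 0.105 RPKM in MEF WT and 0.0754, 0.135 and 0.132 RPKM in the other line, and was under the filter. Jag1 RNA per receptor RNA was 0.0703, 0.215 and 0.104 in MEF WT and 0.545, 1.04 and 0.542 in the KO-labelled libraries. Ligand and receptor RNA were about level only in KO-labelled replicate 2, which had the most Jag1 and the least receptor RNA.

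**Figure D2:**
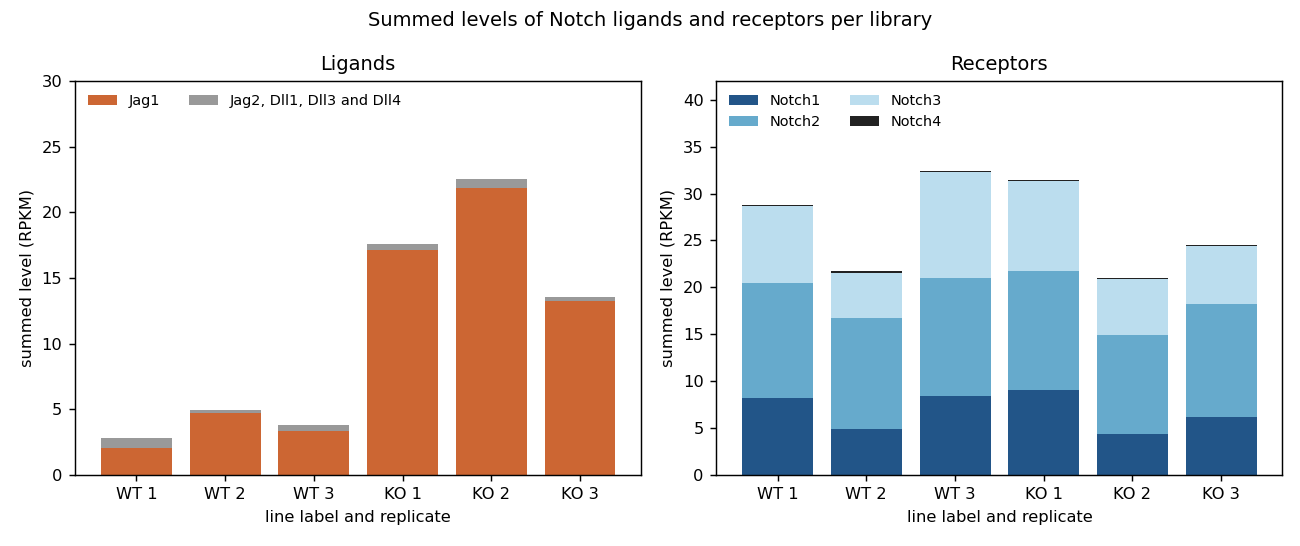
Summed levels (RPKM) of canonical Notch ligands (left) and receptors (right) in each library, stacked by gene, where WT and KO stand for the labels MEF WT and MEF Nf2 KO and the number is the replicate. Jag1 fills 72.6 to 98.2% of each ligand bar, and the receptor bars of the lines overlap at 21.0 to 32.4 RPKM.

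Of the targets, Hes1 overlapped between the lines, while Hey1 and Hey2 were each higher in all KO-labelled libraries. Hes1, a repressor of differentiation genes that other pathways also induce, had 6.02, 11.3 and 8.18 RPKM in MEF WT and 9.50, 10.3 and 9.44 RPKM in the KO-labelled libraries. MEF WT replicates held both the lowest and the highest value. The line difference was 0.21 with a standard error of 0.20, and 0.14 with the replicate block. Hey2, a bHLH repressor known from heart and vessel development, had 0.857, 1.19 and 0.821 RPKM in MEF WT and 1.77, 3.18 and 1.44 RPKM in the KO-labelled libraries, on 53 to 482 reads. The lines did not overlap, and within same-numbered replicates the ratios were 2.06, 2.67 and 1.75. The means were 0.957 ± 0.206 and 2.13 ± 0.928 RPKM (SD, n = 3 each), a difference of 0.64 with a standard error of 0.22 on the log2(RPKM + 1) scale. With the replicate block the standard error was 0.12. Hey2 reached the filter through the 3 KO-labelled libraries and MEF WT replicate 2. Its window is the one with 2 copies of GTGGGAA shown above.

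Hey1, the closest relative of Hey2 in the list, was under the filter. It had 0.319, 0.339 and 0.335 RPKM in MEF WT and 0.508, 0.683 and 0.402 RPKM in the KO-labelled libraries. The lines did not overlap, with ratios of 1.59, 2.01 and 1.20 within replicates, but these levels rest on only 14 to 96 reads. Heyl, the third Hey gene, had 0 to 2 reads in each library, at most 0.0216 RPKM. A count of 3 reads, the limit that a count of 0 allows (one-sided, 95%, whereas the intervals for Dll1 are two-sided), would be 0.0436 RPKM in MEF WT replicate 1 and 0.00803 RPKM in KO-labelled replicate 3, which both had 0 reads. Hey1 and Hey2 thus both had their highest value in KO-labelled replicate 2, where Jag1 was highest as well.

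**Figure D3:**
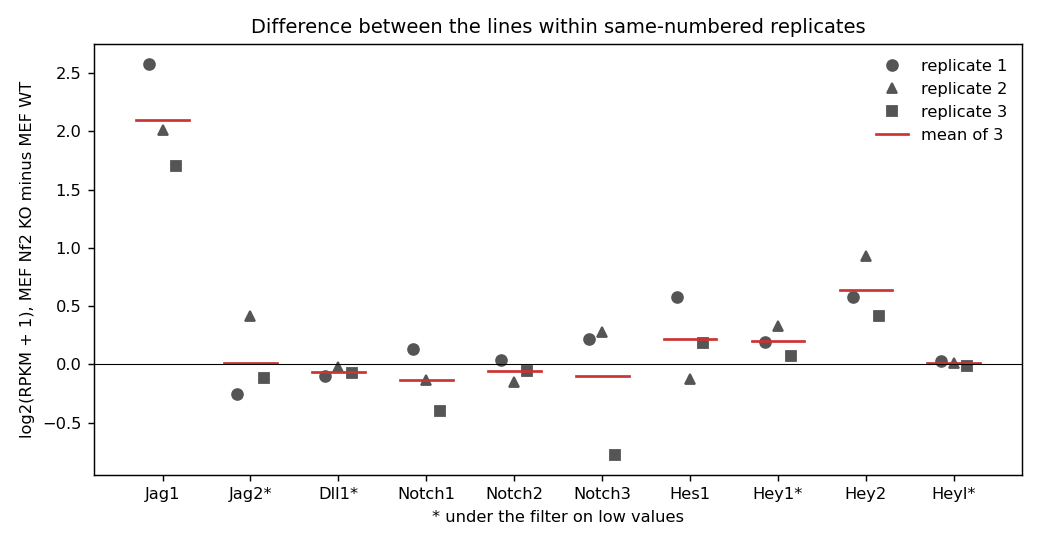
Difference in log2(RPKM + 1), line labelled MEF Nf2 KO minus MEF WT, within each same-numbered pair of replicates for the 10 Notch genes, with the mean of 3 as a red line and asterisks for genes under the filter on low values. Jag1 lies at 1.71 to 2.58 and Hey2 at 0.42 to 0.93, whereas each receptor has replicates on both sides of 0.

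In MEF WT the order of the 10 levels was Notch2, Hes1, Notch3, Notch1, Jag1, Hey2, Jag2, Hey1, Dll1 and Heyl. The range of Notch3 overlapped those of Hes1 and Notch1 there, and that of Jag2 overlapped that of Hey1, while the other neighbors did not overlap. In the KO-labelled libraries, Jag1 came first, ahead of Notch2, Hes1, Notch3, Notch1, Hey2, Hey1, Jag2, Dll1 and Heyl. Again the range of Notch3 overlapped those of Hes1 and Notch1. The ranges of Hey1 and Jag2 overlapped, and so did those of Dll1 and Heyl. Jag1 therefore went from place 5, under all 3 receptors, to place 1, above Notch2 in each library.

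For the count of these genes in the whole fit, 6 of the 10 passed the filter: Jag1, Notch1, Notch2, Notch3, Hes1 and Hey2. With limma and Benjamini-Hochberg adjustment over the 11067 genes, 1 of the 6, Jag1, passed an adjusted p of 0.05, where 1.06% of the tested genes passed, 0.479% higher and 0.578% lower. With replicate numbers as a block 2 of the 6 passed, Jag1 and Hey2, both higher, where 7.53% of the tested genes did, 2.99% higher and 4.54% lower. Lines that do not overlap were found in 15.1% of the tested genes, and in 2 of the 6, Jag1 and Hey2. The genes were selected for this contrast, so nothing is read from these counts. Map2, the leading gene of the neural marker list, was also higher in the KO-labelled libraries, and the list summed to 4.02 to 6.64 RPKM in MEF WT against 8.87 to 12.5 RPKM, while Sox2, Sox10 and Gfap were at or near 0. Its part in the Jag1 difference was not tested. In bulk RNA, more cells that express Jag1 and more Jag1 RNA per cell cannot be told apart.

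The replicate numbers offer a comparison other than the line difference known when the genes were chosen. It is not fully independent of the choice, since earlier results of these data were known. Tested across replicate numbers with the line in the model (limma F test, adjusted over all genes), 1 of the 6 genes differed, Notch1 (adjusted p = 0.0307), against 21.2% of all tested genes. In Notch1, replicate 2 stood at 0.590 of the mean of the other two in MEF WT and at 0.577 in the KO-labelled libraries. This call was lost without either replicate 2 library, when 0 of the 6 passed (2 each time at an unadjusted p under 0.05). Over all tested genes the calls then went from 2347 to 212 or 213, so this loss is not particular to Notch1. Hey2 had an adjusted p of 0.0818, Jag1 0.126, Hes1 0.188, Notch3 0.206 and Notch2 0.328 in the same limma test. Replicate 2 was high for the ligand and the targets, with Jag1 at 1.73 and 1.44 times the mean of the other two, Hey2 at 1.42 and 1.99 times and Hes1 at 1.59 and 1.08 times, in MEF WT and in the other line. Notch3 stood at 0.492 and 0.761 of that mean. Mural and smooth muscle markers (led by Acta2) were highest in replicate 2 of both lines too, at 2480 RPKM summed against 472 and 757 RPKM in MEF WT, and at 2830 against 804 and 1170 RPKM in the other line. Acta2 and Tagln carry these sums. Of the 5 mural markers over 1 RPKM on average, 4 were highest in replicate 2 of both lines, and Mcam was highest in replicate 3 of both. Between the lines Cspg4 was lower in the KO-labelled libraries, at 5.78 ± 0.855 against 13.3 ± 2.15 RPKM (SD, n = 3 each, limma, adjusted p = 0.0329). With the replicate block Acta2 and Mcam were higher there (limma, adjusted p = 0.0487 and 0.0147). The mural markers Myh11, Kcnj8 and Abcc9 were at or near 0 in all 6 libraries, and Cspg4, Mcam, Tagln and the last 3 are named after their values were seen. Other markers also moved with the replicate number, all but Kdr named after their values were seen. The endothelial marker Kdr was highest in replicate 2 of both lines, at 3.75 and 4.39 RPKM (limma F test, adjusted p = 0.0061). Egfl7, the other tested endothelial marker, was instead lowest there in both lines, at 1.28 and 0.811 RPKM, and did not pass (limma F test, adjusted p = 0.478). The fibroblast markers Col1a1, Col1a2, Col3a1 and Pdgfrb were lowest in replicate 2 of both lines (limma F test, adjusted p from 0.00464 to 0.0233), whereas Thy1 was highest there (adjusted p = 0.0319). The part of all these markers in the replicate difference was not tested, and neither was that of the library marks.

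**Figure D4:**
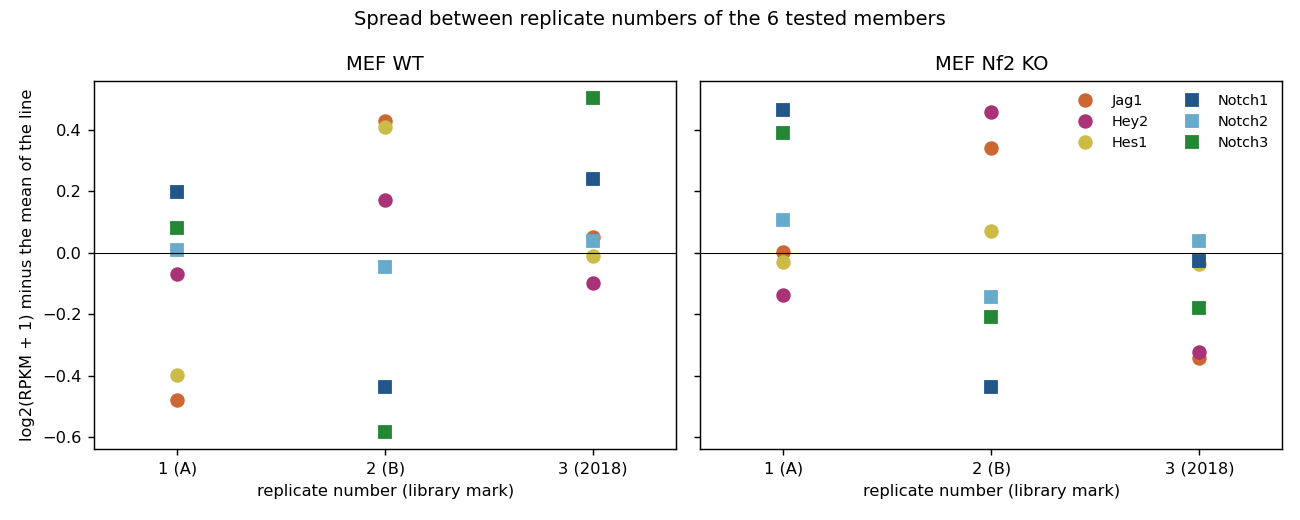
Level of the 6 tested Notch genes in each replicate as log2(RPKM + 1) minus the mean of its own line, for MEF WT (left) and the KO-labelled line (right), circles for the ligand and targets and squares for receptors. In replicate 2 the circles of Jag1, Hey2 and Hes1 lie above 0 and the receptor squares below 0 in both lines.

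Beyond the 10 genes, 77 other genes of the pathway were listed by role, of which 76 are in the table and 59 passed the filter. Between the lines 2 of the 59 passed the threshold (limma), Dlk1 and Neurl1a, both lower in the KO-labelled libraries. Both reached the filter only through the 3 MEF WT libraries, where they were high, and at their KO-labelled levels in all libraries they would not have been tested. The count and the p-values of these 2 genes are therefore given as a description and support nothing further. With the replicate block 3 of 59 passed, Rbpj being added, also lower, and none was higher in these 2 fits (7 of the 59 had an unadjusted p under 0.05 without the block). That is 3.39% of the 59 without the block and 5.08% with it, beside the 1.06% and 7.53% of all tested genes given above. The median log2 fold change of the 59 was -0.039, with 19 positive and 40 negative. Over all tested genes it was -0.0078, with 5304 positive and 5763 negative, and nothing is read from this small difference.

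Dlk1, a Delta-like protein that lacks the domain by which Delta ligands bind Notch and is known from the imprinted region of chromosome 12, had 3.30, 3.88 and 8.10 RPKM in MEF WT. In the KO-labelled libraries it had 0.147, 0.293 and 0.0653 RPKM, on 15 to 32 reads. The lines were far apart, with means of 5.09 ± 2.62 and 0.168 ± 0.116 RPKM (SD, n = 3 each), and the difference was -2.31 on the log2(RPKM + 1) scale with a standard error of 0.28 (limma, adjusted p = 0.0275). Its neighbor in role, the endocytic E3 ligase gene Neurl1a on chromosome 19, acts on ligands in the sending cell. It had 2.05, 2.18 and 2.27 RPKM in MEF WT and 0.564, 0.611 and 0.555 RPKM in the KO-labelled libraries. Replicates were close within each line, and the difference of Neurl1a was -1.0 with a standard error of 0.098 (limma, adjusted p = 0.0144). With no filter, so that neither gene was admitted by its MEF WT level, the adjusted p was 0.134 for Dlk1 and 0.0580 for Neurl1a over all 26231 genes (limma), past the threshold for neither. Leaving out replicate 1 of either line, or KO-labelled replicate 3, ended both calls, with adjusted p from 0.0727 to 0.134 in limma. Without replicate 1, or replicate 3, of both lines these values were 0.253 to 0.446. Leaving out MEF WT replicate 3 alone ended that of Neurl1a (adjusted p = 0.0955). With a pseudocount of 0.1 the differences were -4.25 for Dlk1 and -1.74 for Neurl1a. An exon of Neurl1a overlaps another gene of the same strand, which was not used here.

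Rbpj, the DNA-binding factor through which all 4 receptors act, had 4.45, 5.91 and 4.65 RPKM in MEF WT and 2.62, 4.21 and 2.74 RPKM in the KO-labelled libraries. Replicate 2 was the highest of each line, and the lowest MEF WT value lay above the highest of the other line. The difference was -0.53 with a standard error of 0.17 (limma, adjusted p = 0.327, and 0.0162 with the replicate block). When replicate 2 of both lines was left out, 5 of the 59 genes passed without a block, beside 4.37% of all tested genes. They were Dlk1, Neurl1a, Rbpj (limma, adjusted p = 0.0279) and, named after their values were seen, Maml2 and Ccnd1. Maml2, a Mastermind-like coactivator, was then higher by 0.61 (limma, adjusted p = 0.0253), and Ccnd1, a cyclin listed among the other targets, was lower, with a difference of -1.01 (limma, adjusted p = 0.0242).

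**Figure D5:**
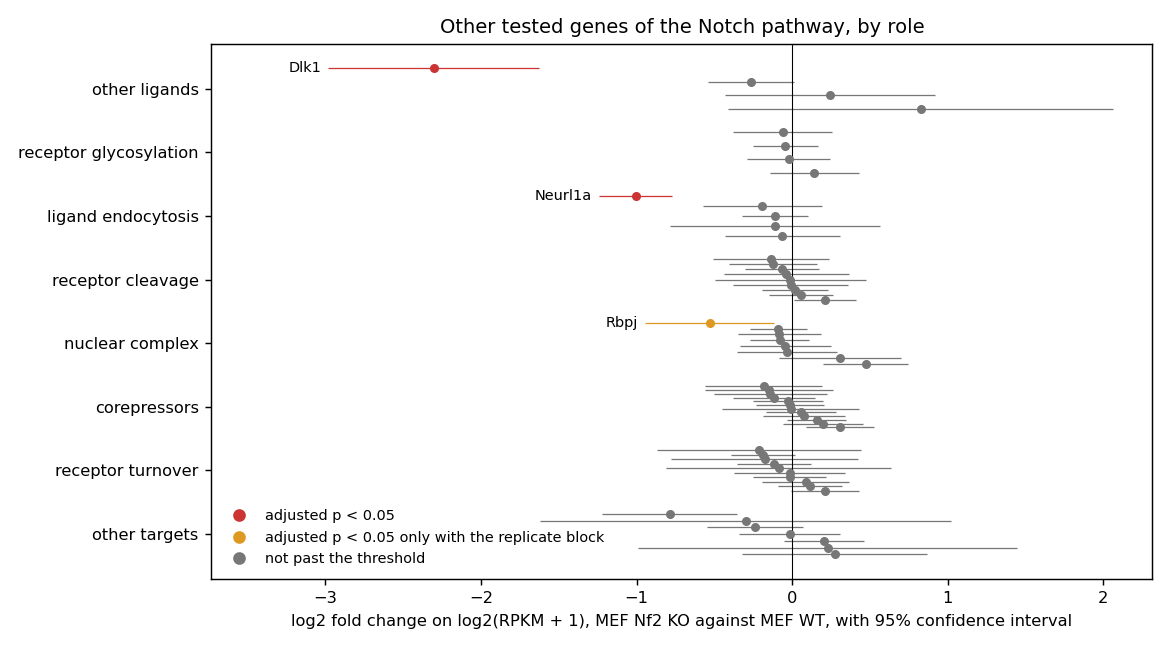
Log2 fold change on log2(RPKM + 1), line labelled MEF Nf2 KO against MEF WT, with 95% confidence intervals from limma for the 59 other tested Notch pathway genes, grouped by role. Dlk1 and Neurl1a (red) and, with the replicate block only, Rbpj (orange) lie to the left of 0, and the median of all 59 is -0.039.

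By role, the other ligands had 10 listed genes and 4 tested, of which Dlk1 alone passed. The highest mean over all 6 libraries was that of Ccn3, listed under its older symbol Nov, a secreted protein that can bind Notch1, while in MEF WT alone Dlk1 had the higher mean. It had 3.91, 3.95 and 5.01 RPKM in MEF WT and 22.1, 5.10 and 4.78 RPKM in the KO-labelled libraries, so that a single library, replicate 1, carried its difference of 0.83 (standard error 0.52, limma, adjusted p = 0.759). Among ligand endocytosis genes 1 of 5 tested passed, Neurl1a. The most abundant of that list was Epn1, an endocytic adaptor, with 24.5 ± 4.02 and 21.3 ± 3.14 RPKM (SD, n = 3 each). Of the 8 tested genes of the nuclear complex none passed without the block, with 2 at an unadjusted p under 0.05. Its top gene Kat2a, a histone acetyltransferase, had 19.7 ± 0.725 and 18.6 ± 2.35 RPKM.

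The remaining roles had no gene past the threshold in limma with all libraries, with or without the block. They were receptor glycosylation (4 tested, led by the fringe Rfng), receptor cleavage (9 tested, led by the protease Adam10), corepressors (12 tested, led by Ctbp1), receptor turnover (10 tested, led by the E3 ligase Nedd4) and other targets (7 tested, led by the cell cycle inhibitor Cdkn1a). At an unadjusted p under 0.05 they held 0, 1, 1, 0 and 1 genes. Adam10, which makes the first cut in the receptor, had 42.5 ± 0.484 and 44.3 ± 2.57 RPKM (SD, n = 3 each). Cdkn1a had 149 ± 8.34 and 172 ± 16.7 RPKM, with a difference of 0.20 and a standard error of 0.11 (limma, adjusted p = 0.674). The medians of these 5 lists lay between -0.051 and -0.011.

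Of the 17 listed genes under the filter 2 had lines that did not overlap, named here after their values were seen. Both were above 0 in all libraries, as were 10 of the 17, and among all genes under the filter and above 0 in all libraries 14.8% had lines that did not overlap. Nrarp, a feedback inhibitor that Notch itself induces, had 0.173, 0.123 and 0.120 RPKM in MEF WT and 0.343, 0.361 and 0.217 RPKM in the KO-labelled libraries, on 6 to 41 reads. Dner, a Delta-like protein of neurons, had 0.0155, 0.0661 and 0.0614 RPKM in MEF WT and 0.335, 0.347 and 0.400 RPKM in the other line, on 1 to 140 reads. Both were higher in the KO-labelled libraries, at levels too low for the test.

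Across replicate numbers, 12 of the 59 other genes differed (limma F test, adjusted over all genes), a share of 20.3% beside the 21.2% of all tested genes. Myc and Mib2, named after their values were seen, had the lowest adjusted p, 0.00767 and 0.00796. Myc, a known Notch target in T cells, stood in replicate 2 at 2.28 and 3.25 times the mean of the other two in MEF WT and in the KO-labelled line. Mib2, an E3 ligase for ligands, stood at 0.537 and 0.541 of it. Rbpj was among the 12 as well (adjusted p = 0.038), at 1.30 and 1.57 times. Without replicate 2 of both lines 0 of the 59 differed (4 at an unadjusted p under 0.05), as did 0 of all tested genes.

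The 5 genes whose levels followed Jag1 most closely were looked up among the 7023 tested genes whose mean reached 5 RPKM. They were Vgll4, a cofactor of TEAD proteins, with a Pearson correlation of 0.998 over the 6 libraries on log2(RPKM + 1), Aplp2 with 0.996, Slc43a3 with 0.994, and Sub1 and Mad2l1 with 0.988 each. Vgll4 had 4.63, 5.70 and 5.41 RPKM in MEF WT and 9.72, 10.5 and 8.84 RPKM in the KO-labelled libraries. Like Jag1, it was lowest in MEF WT replicate 1 and highest in KO-labelled replicate 2. Of the 7023 genes, 154 had a correlation over 0.9, and the 6 points share the line difference and the replicate numbers. Hey2, whose mean was under the limit, had a correlation of 0.889.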

How the data were processed

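GENEWIZ made and sequenced the 6 libraries and analysed the reads. The authors deposited a table of 26231 genes whose values are taken as RPKM, from their steps (83.2 to 85.1% of values of up to 20 reads were whole multiples of 1 read within 0.05 read, where chance gives 10%). Exon lengths and gene positions came from GENCODE vM21. The submitters' processing notes give the genome build mm10, while the aligner, the counting tool and strandedness are not given in the sources used here. Some values correspond to far less than 1 read, a mark of an estimate that shares reads between genes. All 6 columns were mapped from their labels.

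Values were set to log2(RPKM + 1). The filter kept 11067 genes (1 RPKM or more in 3 or more libraries), which were fitted with limma 3.58.1 in R 4.3.3 (trend and robust settings, two-sided tests, Benjamini-Hochberg adjustment, threshold 0.05), checked on simulated data. No covariate was used, after the unpaired test of the study's methods. How libraries of the same number deviated from the mean of their line correlated at 0.552, 0.819 and 0.516 over genes, so the numbers count as pairs, and values with the replicate block stand beside those without it where a call changes. Reads are approximate, recovered from the RPKM steps. Depth makes replicate 3 the most precise at low levels.

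The 10 genes, the pathway lists and the marker lists were chosen with earlier results of these data known. Named are the 10 genes and Nf2, other pathway genes past the threshold with or without the replicate block, the gene with the highest mean of each role or marker list, and the 5 genes most like Jag1. Further genes are marked in the text as picked by their values, or are named as defining markers. Motifs were searched in RefSeq windows from 250 bases before to 50 after each start. Alternatives were other settings of limma, quantile normalization, median centring, a pseudocount of 0.1, other filters, the 2018 mark as a covariate, the replicate block, and each library and each replicate number left out.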

Additional observations from a re-analysis of the deposited data

How the results depend on the processing

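Jag1 was higher in the libraries labelled MEF Nf2 KO in all 19 alternatives run, with log2 differences from 1.86 to 2.39. Hey2 was higher in all 18 that kept it, from 0.41 to 1.03. The lines overlap for neither gene, so leaving out libraries could not change these directions, which add no support. The number of the 6 tested Notch genes past the threshold, 1, went to 0 with the 2018 mark as a covariate and without a filter, and to 2 (Jag1 and Hey2) with the replicate block. Over all genes the calls went from 117 to 62, 9 and 833 in these settings. Without a filter all 26231 genes enter the adjustment, and the cause of the other change was not tested. The replicate block moved the pathway genes beyond the 10 from 2 to 3, adding Rbpj, and changed no other call among them. These other genes went from 2 to 0 with a filter of 5 RPKM, which Dlk1 and Neurl1a do not reach, and to 0 without a filter, where 63 and 9 of all genes passed. With voom on the recovered reads together with the block, chosen after seeing the data, 7 other genes (12.1% of those tested, beside 10.5% of all genes) and 2 of the 10 passed. Genes differing between replicate numbers went from 1 to 0 of the 10 and from 12 to 0 of the others without a filter, and to 2 (Notch1 and Hey2) after quantile normalization, where over all genes the calls went from 2347 to 0 and to 1826. Leaving out a library or a replicate number gave 0 to 1 of the 10 and 0 to 5 of the others past the threshold between the lines, and 0 to 3 and 0 to 17 between replicate numbers. Over all genes these settings gave 0 to 484 and 0 to 2700 calls, so the counts moved with the whole table. The 1 went to 0 without replicate 1 or 3 of either line, where 10 to 18 of all genes passed, or of both, where 0 did, while the difference of Jag1 stayed within the range above. The median of the tested Notch genes ranged from -0.037 to 0.24 (0.079 with all libraries) and that of the other genes from -0.076 to 0.0063 when a library or number was left out. Depth limits Dll1 and Heyl most. The alternatives planned for a table of counts were left out, since the values are RPKM.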
